A study of Rattus norvegicus with 47 samples.

Results

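The 6-month comparison set 3 libraries labelled lithium against 4 libraries labelled control, 7 of the 47 RNA-seq libraries of the series. The members were taken by their sample labels from the raw count matrix of the 6-month study, and the library labelled lithium 4 was left out. The study left it out too, as a library that did not cluster with its group. All libraries came from the kidney cortex of male Wistar rats. By the labels, lithium rats had 60 mM lithium carbonate in their chow and control rats had control chow, for 6 months. The remaining group of the 6-month samples, labelled lithium-amiloride, also had 0.2 mM amiloride in the drinking water by the labels. By the text of the study, amiloride at 6 months began only after the first month of lithium. Libraries 1 to 3 of the group labelled lithium-amiloride entered the fit so that all 3 groups shared 1 estimate of the spread, and its library 4 was left out. Each library is a mixture of the cells of the cortex, with no cell type sorted. The replicates are known only as numbered samples, so the p-values measure the spread between these samples, which may be technical in part.

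These libraries carry other names in the deposited comparison tables. There the libraries labelled lithium stand as lithium-amiloride, those labelled control as lithium, and those labelled lithium-amiloride as control. The comparison is therefore lithium against control by the sample labels, and lithium-amiloride against lithium by the tables. By the tables, the amiloride would thus belong to the libraries labelled lithium. The groups are called here by their sample labels, as labelled lithium and labelled control. Total counts ran between 22579658 and 25415685 reads in the labelled lithium libraries, and between 21820133 and 23642740 reads in the labelled control libraries.

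Aqp2, the water channel of collecting duct principal cells that lithium is known to lower, was read first as a check of the labels. Levels are counts per 1000000 reads (CPM), scaled between libraries by TMM. At 6 months Aqp2 stood at 88.4, 80.7 and 74.8 CPM in labelled lithium, against 30.7, 33.7, 30.5 and 19.5 CPM in labelled control. Labelled lithium was higher in every library and the groups did not overlap. In the 14-day study, Aqp2 had a median of 18.0 CPM in 6 lithium libraries (10.3 to 24.8), against 168 CPM in 6 control libraries (153 to 206). In the 28-day study the medians were 24.8 CPM in 6 lithium libraries and 170 CPM in 6 control libraries. Lithium libraries were thus below control libraries at 14 and 28 days, and libraries labelled lithium were above libraries labelled control at 6 months. The 3 libraries labelled lithium-amiloride at 6 months were higher than both, at 144, 230 and 197 CPM.

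In the last part of the nephron, sodium enters principal cells through the epithelial sodium channel ENaC and leaves through the sodium-potassium pump, under the control of aldosterone and its receptor. Lithium also enters through ENaC, and amiloride blocks this channel. Long lithium exposure is known for a loss of urinary concentration, for dilated distal tubules and for scarring between the tubules.

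A gene was called when its adjusted p was under 0.05 in edgeR's quasi-likelihood test, with Benjamini-Hochberg adjustment over all genes tested, and its log2 fold change was at least 0.5 in size. Fold changes are labelled lithium over labelled control. Of 14532 genes tested, 202 were higher and 87 were lower in labelled lithium, which is 1.39% and 0.599% of the genes tested and 1.99% in all. The median log2 fold change was 0.85 in size for the genes called higher and also for those called lower, and 72 and 34 of them passed a log2 fold change of 1. The CPM of the groups did not overlap in all 289 called genes and in 15.9% of all genes tested. Symbols were paired only to genes that the authors' tables list in at least 1 comparison, 8900 of those tested, and among these 2.20% were called higher and 0.955% lower. The gene lists hold only genes with a symbol, so these are the shares to set their edgeR calls against. Shares by DESeq2, unadjusted p, sign and overlap are given over all genes tested, and were not computed for genes with a symbol alone. The authors' tables were made from these same data, this contrast among them, so having a symbol was not independent of the fold changes. Of the called genes, 196 higher and 85 lower had a symbol. The shares over all genes tested are thus no matched baseline for the lists. Across genes, the log2 levels of labelled control 1 correlated with those of labelled lithium 1 to 3 at r = 0.9882 to 0.9884, and with those of labelled control 2, 3 and 4 at 0.9902, 0.9859 and 0.9871. Labelled control 2 to 4 correlated with each other at 0.9897 to 0.9926. Labelled control 1 was thus nearer to labelled lithium than to 2 libraries of its own group by this measure, a description over genes with no test. A distance between counts (chi-square per gene) differed. It was 59.4, 47.8 and 29.6 to labelled lithium 1, 2 and 3, and 38.7, 57.8 and 38.8 to labelled control 2, 3 and 4. Only labelled lithium 3 was nearer by it than every library of its own group. The number of calls moved with each library. It was 132, 104 and 136 without labelled lithium 1, 2 and 3, and 615, 158, 153 and 174 without labelled control 1, 2, 3 and 4. With all 12 libraries of the 6-month study, the left-out labelled lithium 4 among them, 91 genes were higher and 20 lower.

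**Figure D1:**
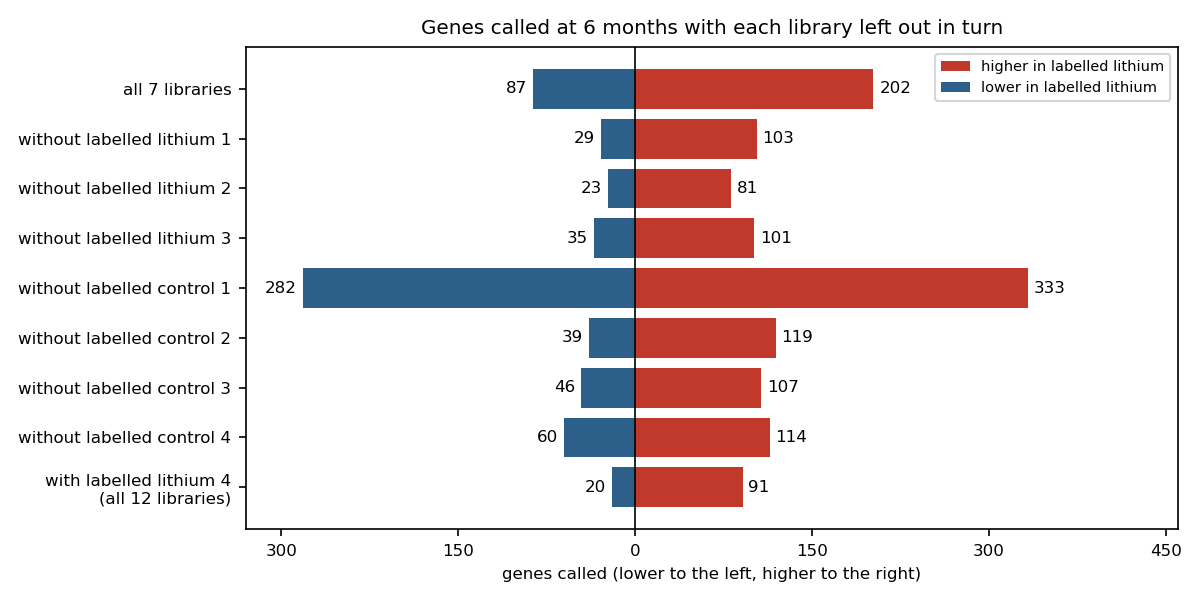
Number of genes called in the 6-month comparison (x axis, genes higher in labelled lithium to the right and lower to the left) with all 7 libraries, with each library left out in turn and with all 12 libraries. With all 7 libraries 202 genes were higher and 87 lower, and without labelled control 1 the counts were 333 and 282.

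Genes of aldosterone-regulated sodium reabsorption were higher in labelled lithium. Of 17 listed genes 15 were tested, of which 9 were called higher and none lower, against 2.20% and 0.955% of genes with a symbol. The median log2 fold change was 0.88, against -0.0008 over genes tested with a symbol. The CPM of 13 of the 15 did not overlap between the groups, against 15.9% of all genes. The summed level of the list was 9580 to 10319 CPM in labelled lithium and 6140 to 8180 CPM in labelled control. In bulk tissue, more cells of a type and more RNA per cell cannot be told apart.

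Hsd11b2, the enzyme that inactivates corticosterone and so keeps the mineralocorticoid receptor free for aldosterone, had 327, 342 and 310 CPM in labelled lithium, against 108, 109, 86.0 and 65.5 CPM in labelled control. Every labelled lithium library was above every labelled control library. The log2 fold change was 1.83 ± 0.15 (SE), with an edgeR adjusted p of 0.000264. The 3 ENaC subunits rose together. Scnn1g, which encodes the gamma subunit, had 46.7, 43.1 and 41.9 CPM in labelled lithium, against 17.4, 14.1, 12.5 and 8.41 CPM in labelled control. Scnn1b, the beta subunit, had 54.0, 51.8 and 50.1 CPM in labelled lithium, against 24.4, 21.0, 20.0 and 15.7 CPM in labelled control. For both subunits the lowest labelled lithium library lay above the highest labelled control library. Their log2 fold changes were 1.74 ± 0.20 and 1.36 ± 0.13 (SE), with edgeR adjusted p of 0.00213 and 0.000599. Scnn1a, the alpha subunit, had 162, 149 and 166 CPM in labelled lithium, against 90.0, 64.1, 68.9 and 65.8 CPM in labelled control. Labelled control 1 was the highest of its group and still stood apart from labelled lithium. The log2 fold change of Scnn1a was 1.14 ± 0.10 (SE), with an edgeR adjusted p of 0.000599. The calls of Hsd11b2 and of the 3 subunits held with each of the 7 libraries left out in turn, and with all 12 libraries.

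**Figure D2:**
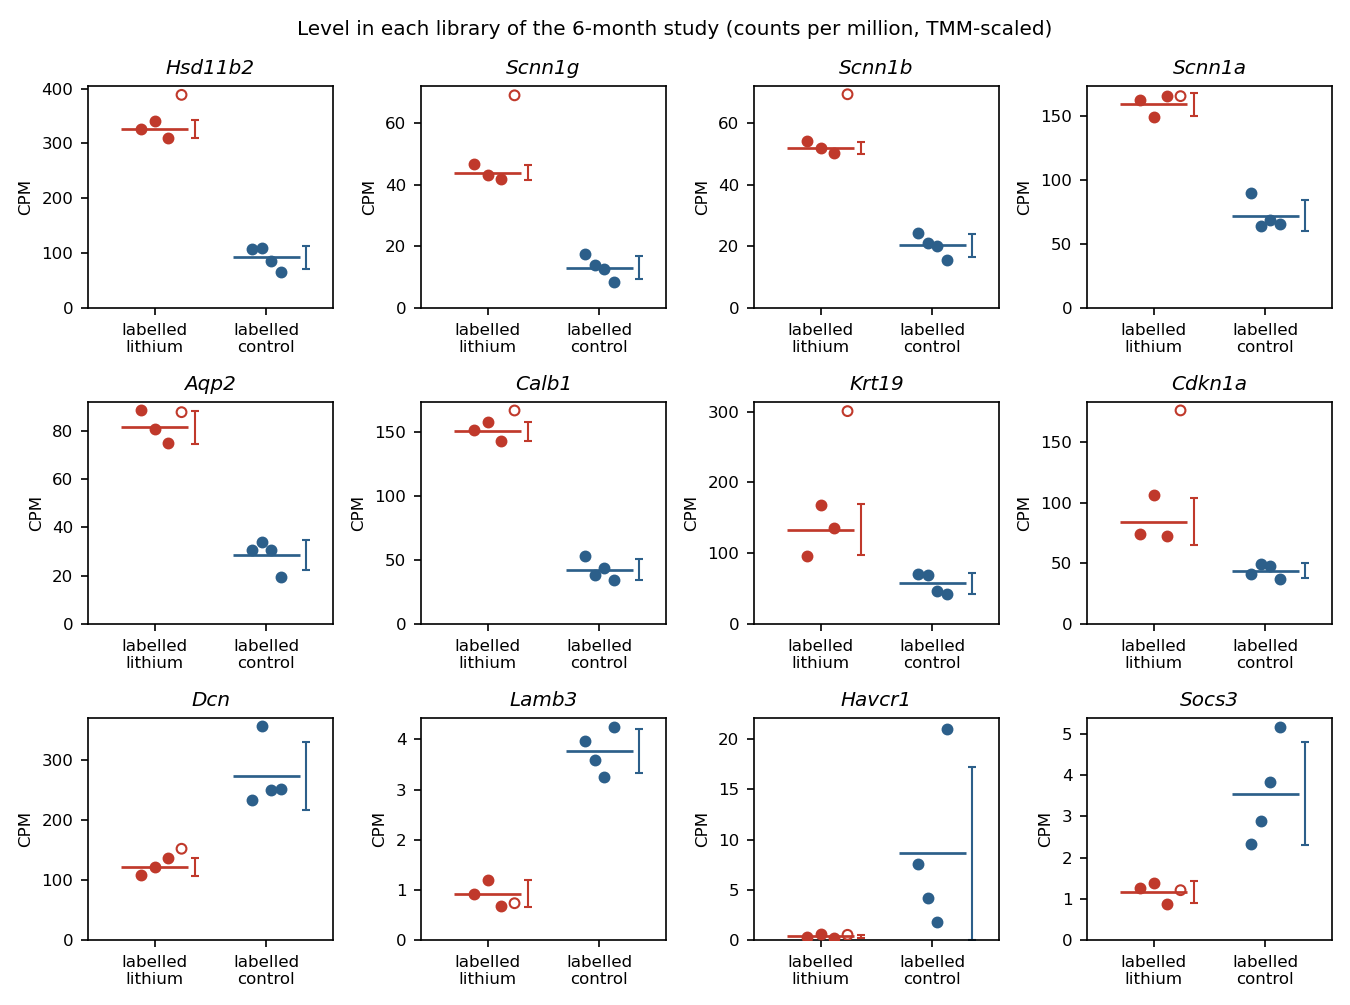
CPM (y axis) of 12 genes in each library of labelled lithium and of labelled control at 6 months, where filled points are libraries, the line is the mean, the bar is the SD over libraries and the open circle is the left-out labelled lithium 4. The groups do not overlap in any of the 12 genes, with labelled lithium higher in the first 8 and lower in Dcn, Lamb3, Havcr1 and Socs3.

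Sgk1, the aldosterone-induced kinase that keeps ENaC at the cell surface, had 209, 215 and 295 CPM in labelled lithium, against 143, 136, 128 and 112 CPM in labelled control. Labelled lithium 3 was the highest of the 7, and the groups did not overlap. The log2 fold change was 0.88 ± 0.12 (SE), with an edgeR adjusted p of 0.00409, and of 0.431 with all 12 libraries. Fxyd4, a regulator of the sodium-potassium pump in the collecting duct, and Klk1, tissue kallikrein of the connecting tubule, rose by log2 fold changes of 1.31 and 1.16, calls that were lost without labelled lithium 2 and without labelled lithium 1 in that order. Kcnj1, the potassium channel ROMK, rose by 0.92 on the log2 scale, with 170, 181 and 171 CPM in labelled lithium, against 139, 84.6, 74.7 and 71.1 CPM in labelled control. Labelled control 1 stood nearer to labelled lithium than to its own group for this gene. The edgeR adjusted p of Kcnj1 was 0.0432, and its call was lost in 6 of the 7 omissions of a library, being kept only without labelled control 1. Fkbp5, a receptor co-chaperone that corticosteroids induce, rose by 0.74 on the log2 scale, a call lost without labelled lithium 1, 2 or 3 or labelled control 3. Nr3c2, the mineralocorticoid receptor itself, had a log2 fold change of 0.69 and an edgeR adjusted p of 0.132, and was not called. Nor was Atp1b1, a subunit of the sodium-potassium pump (log2 fold change 0.45, edgeR adjusted p 0.0567).

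Principal cell genes share Hsd11b2, Scnn1b, Scnn1g and Fxyd4 with the aldosterone list. They were called higher in 7 of 11 tested and lower in none, against 2.20% and 0.955% of genes with a symbol. Their median log2 fold change was 1.31. Their summed level was 1327 to 1520 CPM in labelled lithium and 636 to 1052 CPM in labelled control. Aqp2, whose levels were given above, had a log2 fold change of 1.51 ± 0.19 (SE) and an edgeR adjusted p of 0.00265. Avpr2, the vasopressin receptor that drives Aqp2 to the membrane, had 15.4, 14.5 and 16.0 CPM in labelled lithium, against 7.87, 7.29, 5.83 and 4.85 CPM in labelled control. The labelled lithium libraries lay close together and above all of labelled control. The log2 fold change of Avpr2 was 1.24 ± 0.16 (SE), with an edgeR adjusted p of 0.0037. Gata3, a transcription factor of the collecting duct, had 36.7, 41.9 and 38.6 CPM in labelled lithium, against 23.8, 24.0, 22.5 and 26.8 CPM in labelled control, and rose by 0.69 on the log2 scale. The calls of Aqp2, Avpr2 and Gata3 held in all 7 omissions of a library. Aqp3, the water channel on the blood side of the same cells, had a log2 fold change of -0.05 (edgeR adjusted p 0.930), with overlapping groups. Aqp4, another water channel on that side, had 238, 299 and 300 CPM in labelled lithium, against 200, 189, 118 and 81.0 CPM in labelled control, and was not called (log2 fold change 0.93, edgeR adjusted p 0.123).

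Promoter windows of 250 bases before the start of the gene are shown for the neighbouring ENaC genes Scnn1g and Scnn1b and for the called sodium and principal cell genes that hold a searched motif. The sequences are from RefSeq, build GRCr8, written 5′ to 3′, with capitals marking a match. The motifs searched on both strands were the steroid receptor half-site AGAACA (reverse TGTTCT) and the GATA site AGATAA (reverse TTATCT), which do not overlap each other in these windows.
Scnn1g, chr1:185735975-185736224, plus strand: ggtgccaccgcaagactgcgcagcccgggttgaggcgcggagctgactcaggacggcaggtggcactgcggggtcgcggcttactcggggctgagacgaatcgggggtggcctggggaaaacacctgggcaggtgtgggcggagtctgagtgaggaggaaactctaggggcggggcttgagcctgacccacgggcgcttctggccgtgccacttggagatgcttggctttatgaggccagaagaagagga
Scnn1b, chr1:185861126-185861375, plus strand: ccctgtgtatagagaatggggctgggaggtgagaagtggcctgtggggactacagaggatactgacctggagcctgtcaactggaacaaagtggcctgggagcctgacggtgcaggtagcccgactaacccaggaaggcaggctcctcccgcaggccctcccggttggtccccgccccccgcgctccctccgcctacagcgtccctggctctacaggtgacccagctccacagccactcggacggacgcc
Aqp2, chr7:132590036-132590285, plus strand: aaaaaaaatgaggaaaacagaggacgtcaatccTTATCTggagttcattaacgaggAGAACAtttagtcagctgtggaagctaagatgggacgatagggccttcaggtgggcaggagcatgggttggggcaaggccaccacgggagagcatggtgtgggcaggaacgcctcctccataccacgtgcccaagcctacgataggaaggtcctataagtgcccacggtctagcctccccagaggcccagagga
Avpr2, chrX:156784889-156785138, plus strand: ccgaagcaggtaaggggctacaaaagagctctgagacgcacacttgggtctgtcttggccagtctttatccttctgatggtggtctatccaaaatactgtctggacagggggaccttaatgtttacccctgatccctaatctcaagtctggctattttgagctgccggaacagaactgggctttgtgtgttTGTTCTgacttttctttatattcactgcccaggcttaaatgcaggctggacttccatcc
Kcnj1, chr8:39037742-39037991, plus strand: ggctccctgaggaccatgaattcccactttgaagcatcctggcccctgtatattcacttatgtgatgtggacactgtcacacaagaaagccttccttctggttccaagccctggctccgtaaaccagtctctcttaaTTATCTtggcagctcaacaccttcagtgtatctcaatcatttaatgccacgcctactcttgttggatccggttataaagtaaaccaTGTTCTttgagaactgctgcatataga
The half-site stood 194 bases before the start of Aqp2, 59 before that of Avpr2 and 27 before that of Kcnj1, and the GATA site 217 bases before the start of Aqp2 and 113 before that of Kcnj1. Scnn1g and Scnn1b held neither set of letters in this window. The half-site was in 17 of 148 promoters matched to genes called higher (11.5%) and in 7 of 62 matched to genes called lower (11.3%), against 17.5% of all 33469 promoters. The GATA site was in 6.08% of the promoters of genes called higher and 6.45% of those called lower, against 10.3% of all. Among tested genes with a promoter in the table, the half-site was in 1 of 8 of the aldosterone list (12.5%) and 2 of 10 of the principal cell list (20.0%), or 2 of the 6 called there (33.3%). The GATA site was in 1 of the 8 (12.5%) and 2 of the 10 (20.0%). Aqp2, Avpr2 and Kcnj1 were shown because they hold a match, and the matches are a description of letters only.

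The other segments of the nephron were read in the same way. The list for the distal convoluted tubule and calcium transport had 3 of 15 genes called higher and none lower. Among genes with a symbol these shares were 2.20% and 0.955%. The median log2 fold change was 0.46, and DESeq2 called 7 higher, against 2.08% of all genes called higher and 1.36% lower by DESeq2. Calb1, the calcium buffer calbindin of distal cells, had 152, 158 and 143 CPM in labelled lithium, against 53.5, 38.0, 43.6 and 34.5 CPM in labelled control. The groups were far apart and the call held in all 7 omissions of a library (log2 fold change 1.83 ± 0.18 (SE), edgeR adjusted p 0.000795). Atp2b4, a calcium pump of the plasma membrane, and Wnk1, a kinase that regulates distal sodium chloride transport, rose by 0.80 and 0.76 on the log2 scale. The call of Atp2b4 was lost in 5 and that of Wnk1 in 6 of the 7 omissions. Without labelled control 1, 8 genes of the list were called higher, and 1 gene was without labelled lithium 2 or 3 or labelled control 2 or 3. Slc8a1, the sodium-calcium exchanger, had a log2 fold change of 1.51 and missed the threshold (edgeR adjusted p 0.0511). The calcium channel Trpv5, likewise not called, had 0.76 (0.0778). Egf, the epidermal growth factor of distal cells, had 9.27, 74.4 and 81.7 CPM in labelled lithium, against 10.5, 7.68, 6.45 and 6.69 CPM in labelled control. Labelled lithium 1 stood within labelled control, and Egf was not called (log2 fold change 2.82, edgeR adjusted p 0.0839).

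Intercalated cells secrete acid or base in the same duct. Of 15 of their genes tested, 1 was called higher and 3 lower, against 2.20% and 0.955% of genes with a symbol. The median log2 fold change was -0.23. Foxi1, the transcription factor that defines them, had 42.3, 43.5 and 44.1 CPM in labelled lithium, against 69.0, 59.3, 55.8 and 66.3 CPM in labelled control. Every labelled lithium library was below labelled control, and Foxi1 fell by 0.53 on the log2 scale (edgeR adjusted p 0.00816). With labelled control 1 left out, its log2 fold change of -0.48 came under the fold limit. Atp6v1g3, a subunit of the proton pump, and Rhbg, an ammonia transporter, fell by 0.59 and 0.66, calls lost in 3 and 6 of the 7 omissions. Rhcg, the other ammonia transporter of the duct, rose by 0.58, with 223, 198 and 208 CPM in labelled lithium, against 175, 128, 127 and 130 CPM in labelled control. Its call was lost in 6 of the 7 omissions. Of the 15 genes, 4 had a log2 fold change above 0 and 11 below it, where 50.7% of all genes were below 0. Slc4a1, the chloride-bicarbonate exchanger of acid-secreting cells, was not called at -0.68 (edgeR adjusted p 0.137), nor was Slc26a4 of base-secreting cells at -0.10 (0.614). The 3 lower calls became 1 or 2 with any of the 7 libraries left out and 0 with all 12 libraries.

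By edgeR no gene was called in the lists for the proximal tubule (17 tested), the thick ascending limb (10), podocytes (6), the endothelium (7) and the inner medulla (6). At an unadjusted p under 0.05, which 17.4% of all genes tested passed in edgeR, they held 1, 4, 3, 2 and 3 genes in that order. DESeq2 called 1 higher in the thick ascending limb and 1 higher in the inner medulla, against 2.08% of all genes. The proximal tubule list had a median log2 fold change of -0.02, and its phosphate transporter Slc34a1 had 3721, 3584 and 4201 CPM in labelled lithium, against 3760.3, 3962.5, 4007 and 3799 CPM in labelled control. The groups overlapped, and the summed level of the list was 14869 to 17844 CPM in labelled lithium and 15996 to 17520 CPM in labelled control. Umod, the most abundant product of the thick ascending limb, ran between 897 and 1424 CPM in labelled lithium and between 612 and 1580.5 CPM in labelled control. The median log2 fold change was -0.35 over the podocyte genes and -0.26 over the endothelial genes. Every tested member of both was below 0, against 50.7% of all genes, and none was called. The proximal tubule list had the highest summed level of the segment lists.

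**Figure D3:**
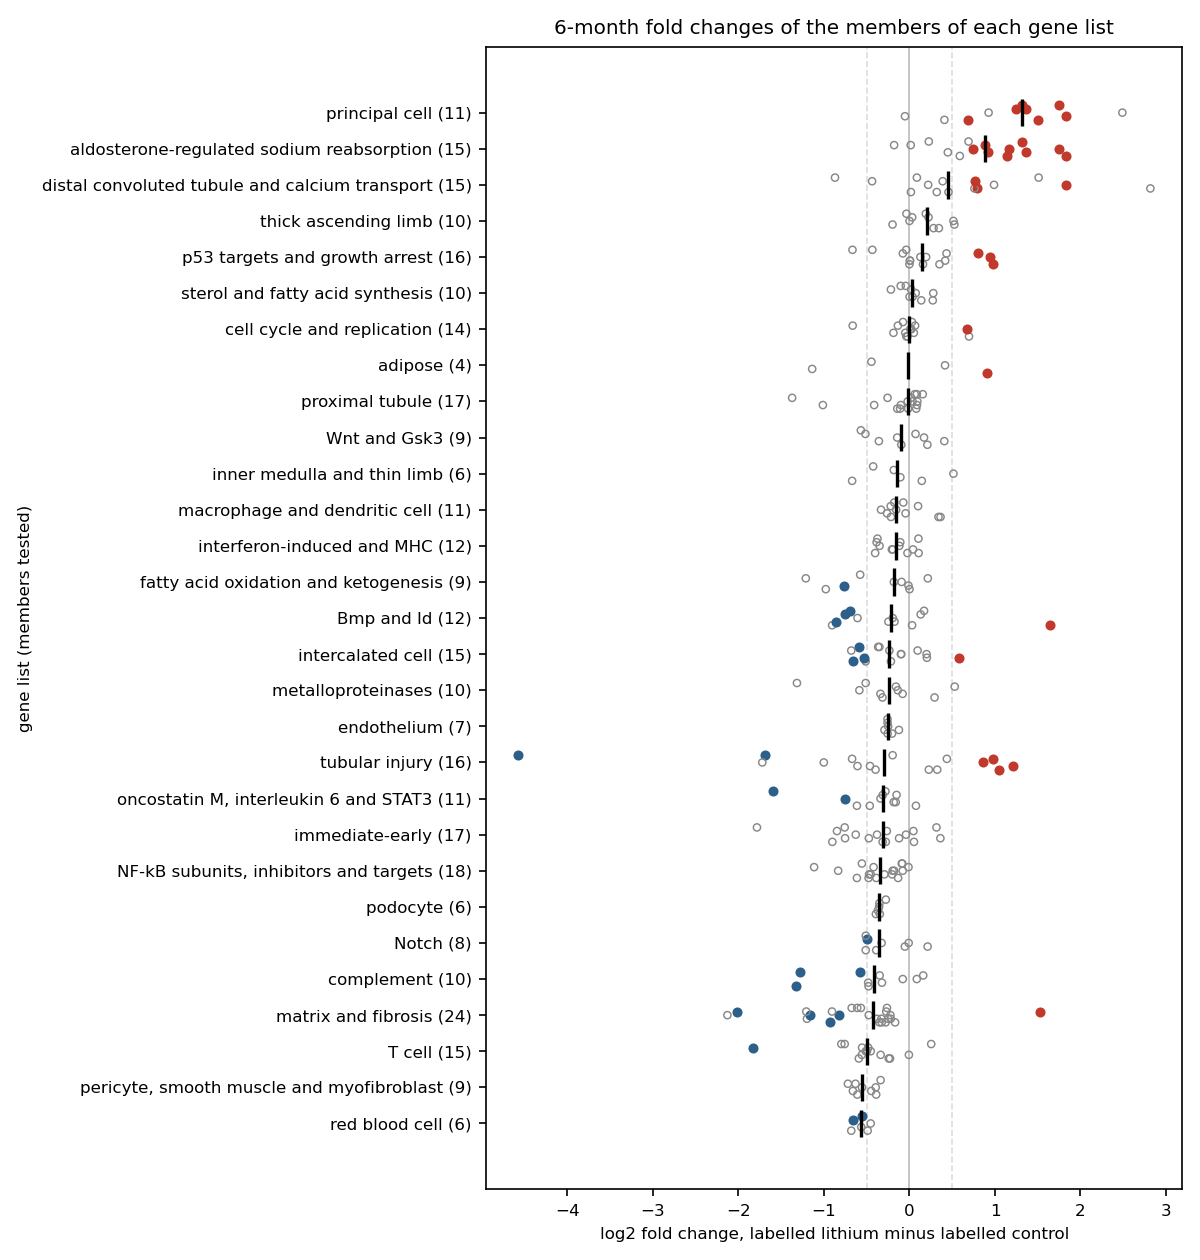
Log2 fold change at 6 months, labelled lithium over labelled control (x axis), of each tested member of the gene lists with at least 4 tested members (y axis, number tested in brackets), where filled points are called genes, open points are not called, the black bar is the median of the list and dashed lines mark 0.5 in size. The principal cell and aldosterone lists have the highest medians, 1.31 and 0.88, and the red blood cell and pericyte lists the lowest, both -0.56.

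Genes that mark injured tubules went both ways. Of 16 tested, 4 were called higher and 2 lower, against 2.20% and 0.955% of genes with a symbol. DESeq2 called 4 higher and 4 lower, against 2.08% and 1.36% of all genes. Havcr1, the injury marker KIM-1 of the proximal tubule, was near absence at 0.260, 0.560 and 0.237 CPM in labelled lithium, against 7.57, 4.14, 1.82 and 21.1 CPM in labelled control. The labelled control libraries ranged widely, with control 4 the highest, and all were above labelled lithium. Havcr1 fell by 4.58 ± 0.88 (SE) on the log2 scale (edgeR adjusted p 0.0226), and its call was lost without labelled lithium 1, 2 or 3. Lcn2, the iron-binding protein NGAL of the injured distal nephron, had 2.81, 3.25 and 3.20 CPM in labelled lithium, against 5.51, 8.32, 6.85 and 19.4 CPM in labelled control, and fell by 1.69 on the log2 scale, a call lost in 5 of the 7 omissions. Control 4 was again the highest library. Of the keratins of simple epithelia, 3 were called higher. Krt7 had 347, 383 and 327 CPM in labelled lithium, against 188, 205, 205 and 182 CPM in labelled control, and Krt18 and Krt19 rose with it, by 1.05 and 1.21 on the log2 scale. Krt19 had 96.3, 168 and 135 CPM in labelled lithium, against 70.6, 69.6, 47.3 and 42.6 CPM in labelled control. Labelled lithium 1 was the lowest of its group and the groups did not overlap, although the call of Krt19 was lost without labelled lithium 2 or 3 or labelled control 3 or 4. Krt8, which pairs with Krt18, had a log2 fold change of 0.44 (edgeR adjusted p 0.0355), under the fold limit. The left-out labelled lithium 4 was above all other libraries for Krt7, Krt18 and Krt19, at 644, 382 and 301 CPM, and with all 12 libraries none of the 3 was called (edgeR adjusted p 0.111, 0.117 and 0.0512).

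Growth arrest genes showed a few higher calls, 3 of 16 tested in the p53 list, against 2.20% of genes with a symbol. The median log2 fold change was 0.14. DESeq2 called 3 higher and 1 lower, against 2.08% and 1.36% of all genes. Cdkn1a, the cell cycle inhibitor p21, had 74.2, 107 and 72.3 CPM in labelled lithium, against 40.8, 49.8, 48.1 and 37.3 CPM in labelled control. Labelled lithium 2 was the highest and the groups did not overlap. Cdkn1a rose by 0.94 ± 0.20 (SE) on the log2 scale (edgeR adjusted p 0.0346), a call that was kept only without labelled control 1 among the 7 omissions. Gdf15, a stress-induced cytokine, and Cdkn2b, the inhibitor p15, rose by 0.97 and 0.80 on the log2 scale, and both calls were lost in 5 of the 7 omissions. With all 12 libraries none of the 3 genes was called (edgeR adjusted p 0.111 for Cdkn1a, 0.163 for Gdf15 and 0.0629 for Cdkn2b). Of 14 cell cycle genes, Ccnd1 (cyclin D1) was the one called, and higher, against 2.20% of genes with a symbol. It had 277, 293 and 338 CPM in labelled lithium, against 192, 178, 199 and 195 CPM in labelled control, a rise of 0.67 on the log2 scale whose call held in all 7 omissions.

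Genes of the extracellular matrix were mostly below 0. Of 24 tested, edgeR called 4 lower and 1 higher, against 0.955% and 2.20% of genes with a symbol. DESeq2 called 9 lower and 1 higher, against 1.36% and 2.08% of all genes. The log2 fold change was below 0 in 23 of the 24, against 50.7% of all genes, and the median was -0.43. Dcn, the collagen-binding proteoglycan decorin, had 108, 121 and 136 CPM in labelled lithium, against 232, 357, 250 and 251 CPM in labelled control. All labelled control libraries were higher, control 2 most of all. Dcn fell by 1.16 ± 0.16 (SE) on the log2 scale, with an edgeR adjusted p of 0.00448. Lamb3, a laminin chain of epithelial basement membranes, had 0.909, 1.20 and 0.672 CPM in labelled lithium, against 3.97, 3.58, 3.25 and 4.25 CPM in labelled control. Both groups were tight for Lamb3, which fell by 2.01 ± 0.22 (SE) on the log2 scale (edgeR adjusted p 0.00135). The calls of Dcn and Lamb3 held in all 7 omissions and with all 12 libraries. Timp1, an inhibitor of metalloproteinases, and Lox, the enzyme that crosslinks collagen, fell by 0.82 and 0.92 on the log2 scale. Each call was lost without either of 2 labelled lithium libraries, and with all 12 libraries (edgeR adjusted p 0.119 and 0.104). The exception was Ccn3, a secreted matrix-associated protein, which had 62.1, 80.1 and 80.4 CPM in labelled lithium, against 30.1, 32.7, 26.4 and 13.7 CPM in labelled control. It rose by 1.53 ± 0.26 (SE) on the log2 scale (edgeR adjusted p 0.0123, and up to 0.0654 without labelled lithium 2 or 3). The fibrillar collagens Col1a1 (log2 fold change -0.61, edgeR adjusted p 0.157) and Col3a1 (-0.33, 0.336) and the growth factor Tgfb1 (-0.32, 0.251) were not called. Without labelled control 1, 10 genes of the list were called lower.

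Pericyte, smooth muscle and myofibroblast genes had a median log2 fold change of -0.56. All 9 tested were below 0, against 50.7% of all genes, and 5 had groups that did not overlap, against 15.9% of all genes. None was called by edgeR, where 7 had an unadjusted p under 0.05, against 17.4% of all genes. DESeq2 called 5 lower, against 1.36% of all genes. Pdgfrb, the receptor that marks pericytes, had 70.4, 57.8 and 70.7 CPM in labelled lithium, against 74.1, 103, 123 and 120 CPM in labelled control (log2 fold change -0.66, edgeR adjusted p 0.0725). Control 1 was close to labelled lithium and the other control libraries were well above it. Acta2, smooth muscle actin, had -0.61 (0.136). The 10 metalloproteinase genes tested had no edgeR call and a median of -0.24. By edgeR 3 had an unadjusted p under 0.05, against 17.4% of all genes. DESeq2 called 1 higher and 1 lower, against 2.08% and 1.36% of all genes.

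Inflammatory lists held few calls. All 18 tested genes of NF-κB subunits, inhibitors and targets had a log2 fold change below 0, against 50.7% of all genes. The median was -0.34. None was called by edgeR, where 7 had an unadjusted p under 0.05, against 17.4% of all genes. DESeq2 called 1 lower, against 1.36% of all genes. Icam1, the adhesion molecule that NF-κB induces, had 23.0, 27.2 and 27.7 CPM in labelled lithium, against 32.2, 34.3, 37.2 and 41.3 CPM in labelled control. Its groups did not overlap, but its log2 fold change of -0.48 (edgeR adjusted p 0.0321) was under the fold limit. The subunits Rela and Nfkb2 had -0.08 and -0.18. Of 15 T cell genes 1 was called, lower, against 0.955% of genes with a symbol. This was Cd69, an early antigen of activated lymphocytes. It had 1.47, 1.31 and 1.86 CPM in labelled lithium, against 6.60, 6.43, 4.76 and 4.25 CPM in labelled control. Labelled lithium was below labelled control in every library, and Cd69 fell by 1.83 ± 0.22 (SE) on the log2 scale (edgeR adjusted p 0.00239), a call that held in all 7 omissions. The T cell receptor genes Cd3e (log2 fold change -0.76, edgeR adjusted p 0.188) and Cd3d (-0.55, 0.490) were not called and stood at or below 3.04 CPM in every library. No macrophage gene of 11 was called by edgeR or DESeq2. In each, 2 had an unadjusted p under 0.05, against 17.4% of all genes in edgeR and 16.9% in DESeq2. Csf1r, which marks macrophages, had a log2 fold change of 0.36.

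In the oncostatin M, interleukin 6 and STAT3 list, 2 of 11 genes were called lower, against 0.955% of genes with a symbol. Socs3, the feedback inhibitor of this pathway, had 1.26, 1.38 and 0.869 CPM in labelled lithium, against 2.32, 2.89, 3.82 and 5.17 CPM in labelled control. The groups did not overlap, control 4 was the highest library and control 1 the lowest of its group. Socs3 fell by 1.59 ± 0.30 (SE) on the log2 scale (edgeR adjusted p 0.0226), and the receptor Osmr fell by 0.75 (0.044). Both calls were lost when 1 of several libraries was left out, 4 of 7 omissions for Socs3 and 5 for Osmr. With all 12 libraries Osmr was not called (edgeR adjusted p 0.630). Complement genes were called lower in 3 of 10, against 0.955% of genes with a symbol. The log2 fold changes were -1.33 for C4b, -1.28 for C4a and -0.58 for Serping1, the inhibitor of the first component. These calls were lost in 4, 5 and 5 of the 7 omissions, and none of them held with all 12 libraries (edgeR adjusted p 0.0673, 0.0825 and 0.0629). C4a and C4b are near-identical copies, so reads could be split between them. Of 17 immediate-early genes edgeR called none and DESeq2 1 lower, against 1.36% of all genes by DESeq2. By edgeR 7 had an unadjusted p under 0.05, against 17.4% of all genes. Fos had -0.90 (edgeR adjusted p 0.400) and Myc -0.76 (0.095).

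Of 12 genes of the Bmp pathway tested, 3 were called lower and 1 higher, against 0.955% and 2.20% of genes with a symbol. Of the 12, 8 were below 0, against 50.7% of all genes. The 3 lower calls became 5 with DESeq2, 0 without labelled lithium 2 or 3, 1 without labelled lithium 1 or labelled control 2 or 3, 2 without labelled control 4 and 4 without labelled control 1. Id1, Id3 and Id4, inhibitors of helix-loop-helix factors that Bmp signals induce, fell by 0.86, 0.76 and 0.69 on the log2 scale. Id1 had 27.7, 23.4 and 19.7 CPM in labelled lithium, against 37.8, 50.7, 41.9 and 40.9 CPM in labelled control. Grem1, which binds and blocks Bmp ligands, had 114, 126 and 126 CPM in labelled lithium, against 57.0, 42.6, 29.7 and 27.4 CPM in labelled control. Neither gene overlapped between the groups, although both calls were lost in 6 of the 7 omissions (Id3 in 2 and Id4 in 5). Grem1 rose by 1.64 ± 0.32 (SE) on the log2 scale (edgeR adjusted p 0.0255). In the Notch list 1 of 8 genes was called lower, against 0.955% of genes with a symbol. This was Jag1, a ligand, with a log2 fold change of -0.50 at the fold limit and a call lost in every omission and with DESeq2. Notch1 had -0.39 (edgeR adjusted p 0.166). Of 9 Wnt and Gsk3 genes edgeR called none and DESeq2 1 lower, against 1.36% of all genes by DESeq2. By edgeR 1 had an unadjusted p under 0.05, against 17.4% of all genes. A pair of Wnt ligands outside the list were called, Wnt7a lower (log2 fold change -2.44, edgeR adjusted p 0.0159) and Wnt9a higher (1.48, 0.0341), the second named after its values were seen. Gsk3b, a kinase that lithium inhibits, had 0.17 (edgeR adjusted p 0.519). Sterol and fatty acid synthesis genes (10 tested) had a median of 0.03 and no call by edgeR or DESeq2. In each, 2 had an unadjusted p under 0.05, against 17.4% of all genes in edgeR and 16.9% in DESeq2. Fatty acid oxidation genes (9 tested) had a median of -0.18, with 7 below 0, against 50.7% of all genes. By edgeR 4 had an unadjusted p under 0.05, against 17.4% of all genes. Of the 9, edgeR called 1 lower, Pdk4, a kinase that shuts off pyruvate oxidation, against 0.955% of genes with a symbol. Pdk4 fell by 0.77 on the log2 scale, a call lost without labelled lithium 1 or 2 and with all 12 libraries (edgeR adjusted p 0.134). DESeq2 called 3 of the 9 lower, against 1.36% of all genes. Interferon-induced and antigen presentation genes (12 tested) had a median of -0.16 and no call by edgeR or DESeq2. In that order 2 and 3 had an unadjusted p under 0.05, against 17.4% and 16.9% of all genes.

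Markers of other tissues were read beside these results. Red blood cell genes had a median log2 fold change of -0.56. Of 6 tested, 2 were called lower (Hbb and Hbb-b1), against 0.955% of genes with a symbol, and DESeq2 called 3, against 1.36% of all genes. The summed level was 297 to 338 CPM in labelled lithium and 406 to 636 CPM in labelled control. Most of this sum was Slc4a1, which intercalated cells also express, at 180 to 231 CPM in labelled lithium and 232 to 482 CPM in labelled control. Without it the other 5 genes summed to 107 to 117 CPM in labelled lithium and 152 to 186 CPM in labelled control. Red blood cell genes thus moved with the groups, and their part in the other results was not tested. The call of Hbb-b1 was lost in 5 of the 7 omissions, and neither it nor Hbb was called with all 12 libraries (edgeR adjusted p 0.831 and 0.608). The genes Hbb and Hbb-b1 are near-identical copies. Of 4 adipose genes tested, 1 was called higher, Adipoq, against 2.20% of genes with a symbol. Adipoq had 28.6, 33.6 and 27.2 CPM in labelled lithium, against 20.0, 17.1, 11.7 and 15.1 CPM in labelled control, while Fabp4 was at or below 1.91 CPM in every library. The call of Adipoq was lost without labelled lithium 2 (edgeR adjusted p 0.066) and with all 12 libraries (0.0888). The adipose list summed to 62.1 to 71.0 CPM in labelled lithium and 60.6 to 82.0 CPM in labelled control. Star, which marks the adrenal gland, was at or below 0.690 CPM in all 7 libraries. The urothelial gene Upk1a reached 2.24 CPM in labelled lithium and 1.25 CPM in labelled control and was not called (log2 fold change 1.12, edgeR adjusted p 0.058).

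The genes of largest change were picked by rule, as the 12 highest and 12 lowest fold changes among called genes with a symbol, groups that did not overlap and a mean of at least 1 CPM. Besides genes named above, those higher were LOC103690821, Ccdc187, Brinp3, Gdap1, Cidea, Camkv and Tmem45b, with log2 fold changes between 1.53 and 4.67. The call of Brinp3 was lost in 5 of the 7 omissions of a library, that of Cidea in 4 and that of Ccdc187 in 1. LOC103690821 had 5.11, 8.18 and 5.18 CPM in labelled lithium, against 0.150, 0.302, 0.222 and 0.280 CPM in labelled control. It was near absence in all of labelled control and also in the left-out labelled lithium 4, at 0.216 CPM, and was not called with all 12 libraries (edgeR adjusted p 0.0638). Gdap1, a mitochondrial protein known from nerve cells, had 12.4, 13.9 and 12.4 CPM in labelled lithium, against 5.55, 3.67, 3.42 and 2.76 CPM in labelled control. Those lower were Alox15b, Guca2b, Wnt7a, Krt17, Wfdc10, Adra1d and Slc25a25, with log2 fold changes between -2.99 and -1.58. The call of Adra1d was lost in 4 of the 7 omissions, that of Wfdc10 in 3 and those of Wnt7a and Krt17 in 1 each. With all 12 libraries Slc25a25, Wnt7a, Adra1d and Ccdc187 were not called (edgeR adjusted p 0.144, 0.178, 0.174 and 0.0615). Alox15b, a lipoxygenase of epithelia, had 0.736, 0.448 and 0.474 CPM in labelled lithium, against 4.80, 6.51, 2.98 and 3.32 CPM in labelled control. Guca2b, the natriuretic peptide uroguanylin, had 3.55, 2.50 and 2.84 CPM in labelled lithium, against 15.5, 35.9, 14.7 and 10.7 CPM in labelled control. Control 2 was the highest library for both, and no control library reached down to labelled lithium. Slc25a25, a mitochondrial carrier of adenine nucleotides, fell by 1.58 on the log2 scale, and labelled lithium 4, at 74.9 CPM, stood within labelled control.

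The left-out labelled lithium 4 was set against both groups for all called genes. Of 202 genes higher, 170 had labelled lithium 4 within the range of labelled lithium or beyond it, 25 between the groups and 7 within labelled control or beyond it. Of 87 genes lower, the counts were 41, 28 and 18. The library lay with labelled lithium more often for the genes higher than for the genes lower, a difference that was not tested.

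The 14- and 28-day studies gave contrasts that share no library with the 6-month one, and all were fitted together in 44 libraries. Time, the study, the start of amiloride and depth cannot be told apart between them, since amiloride began with lithium in the shorter studies. The naming of the 6-month libraries bears on each of these comparisons too. By the labels, lithium against control is the like contrast of the shorter studies, and by the tables it is lithium-amiloride against lithium. In this fit 1.54% of all genes were called in the 6-month contrast, and 287 of the 289 called genes were tested, 200 higher and 87 lower. In lithium-amiloride against lithium at 14 days, 57 of the 200 were called higher and 1 lower, against 0.872% and 1.50% of all genes. Of the 87, 36 were called lower. At 28 days, 59 of the 200 were called higher and 11 of the 87 lower, against 0.745% and 0.220% of all genes. In lithium against control at 14 days, 76 of the 200 were higher and 20 lower, against 8.25% and 3.98% of all genes, and of the 87 genes 48 were higher and 4 lower. At 28 days, 94 of the 200 were higher and 14 lower, against 6.77% and 4.13% of all genes, and of the 87 genes 32 were higher and 4 lower. The genes lower in labelled lithium at 6 months had a median log2 fold change of -0.59 and -0.34 in lithium-amiloride against lithium at 14 and 28 days, and of 0.71 and 0.33 in lithium against control. For the genes higher at 6 months the medians were above 0 in both kinds of contrast, 0.39 and 0.50 in lithium-amiloride against lithium and 0.24 and 0.50 in lithium against control. At each earlier time both kinds of contrast use the same lithium libraries, with opposite sign. Scatter in those libraries moves them in opposite directions, so they are not separate observations.

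**Figure D4:**
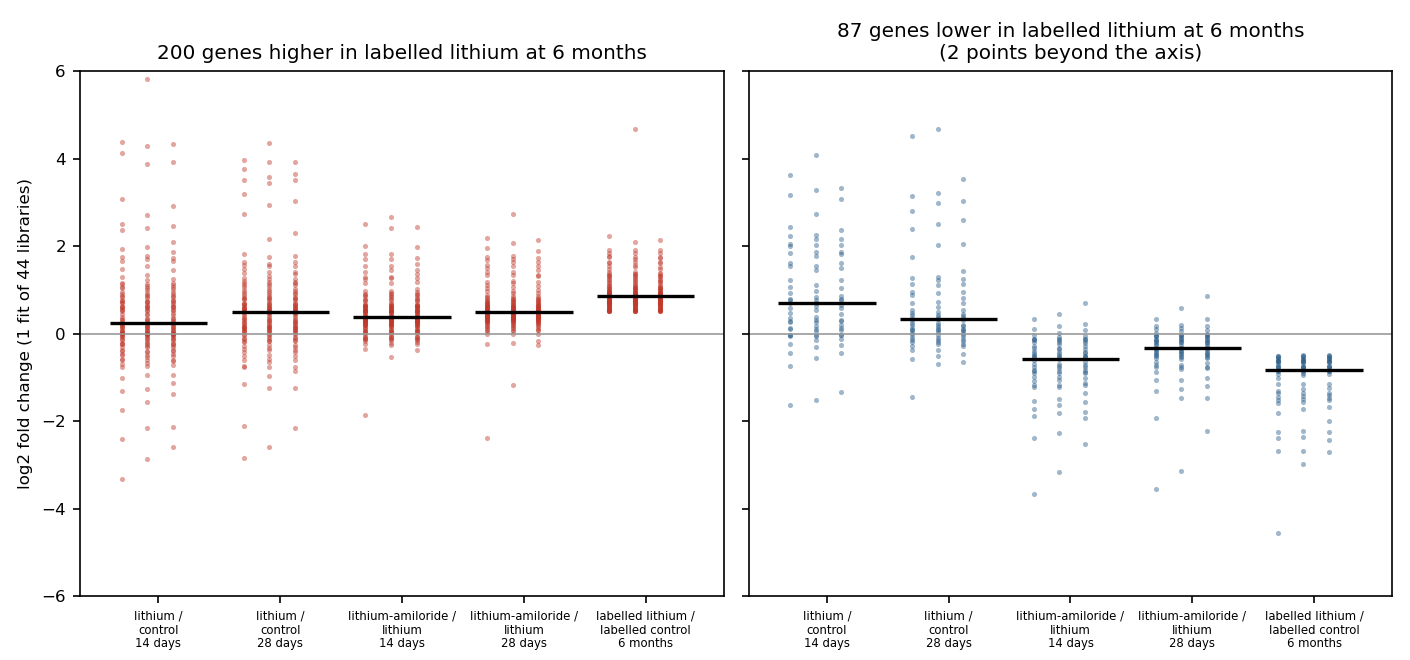
Log2 fold change (y axis) of the 200 genes called higher and the 87 called lower in labelled lithium at 6 months, in each contrast of the 14-day, 28-day and 6-month studies (x axis), where points are genes, the black bar is the median and side-by-side columns of points carry no meaning. In the genes called lower, the medians are above 0 in lithium against control and below 0 in lithium-amiloride against lithium, and in the genes called higher they are above 0 in both. At 14 and 28 days both kinds of contrast share the lithium libraries, with opposite sign.

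The size of the 6-month fold change was tested against each of these contrasts, with the same thresholds. It differed from lithium against control at 14 days in 1610 of 15026 genes (10.7%), 156 of the 287 among them, and from that at 28 days in 763 genes (5.08%), 115 of the 287 among them. It differed from lithium-amiloride against lithium in 11 genes (0.0732%) at 14 days and in 2 genes (0.0133%) at 28 days by edgeR, 5 and 1 of the 287 among them. The 287 were picked by their 6-month fold change, which is also part of each difference. A larger share among them than among all genes is therefore built in by the selection. At an unadjusted p under 0.05 the last 2 comparisons held 1197 and 1142 genes, so a small count of calls does not show that the contrasts were equal. The median SE of these differences was 0.18 on the log2 scale.

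Sodium channel and water channel genes did not all go the same way in lithium against control. Aqp2, at 1.51 at 6 months, had log2 fold changes of -3.31 and -2.84 in lithium against control at 14 and 28 days, and of 2.44 and 1.69 in lithium-amiloride against lithium. Hsd11b2 had -2.14 and -1.24 in lithium against control, and 1.82 and 1.46 in lithium-amiloride against lithium. Scnn1g had -1.37 and -0.97 in lithium against control, and 1.74 and 1.70 in lithium-amiloride against lithium. Scnn1b had -1.56 and -1.24 in lithium against control, and 1.70 and 1.54 in lithium-amiloride against lithium. In these 4 genes lithium-amiloride was above lithium, as labelled lithium was above labelled control. Scnn1a had -0.03 and -0.11 in lithium against control, neither called, and 0.79 and 0.75 in lithium-amiloride against lithium. Aqp4 was higher in both kinds of contrast, by 2.43 and 3.88 in lithium against control and by 1.99 and 1.63 in lithium-amiloride against lithium. Aqp3, at -0.04 at 6 months in this fit, had -1.30 and -0.58 in lithium against control, and 0.88 and 0.61 in lithium-amiloride against lithium, the last not called (edgeR adjusted p 0.0641). Ccn3 rose in both kinds of contrast, by 2.50 and 3.52 in lithium against control and by 1.27 and 1.51 in lithium-amiloride against lithium. Gata3 had 0.77 and 0.49 in lithium against control and 0.43 and 0.55 in lithium-amiloride against lithium, all past the p threshold and those of 0.49 and 0.43 under the fold limit.

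**Figure D5:**
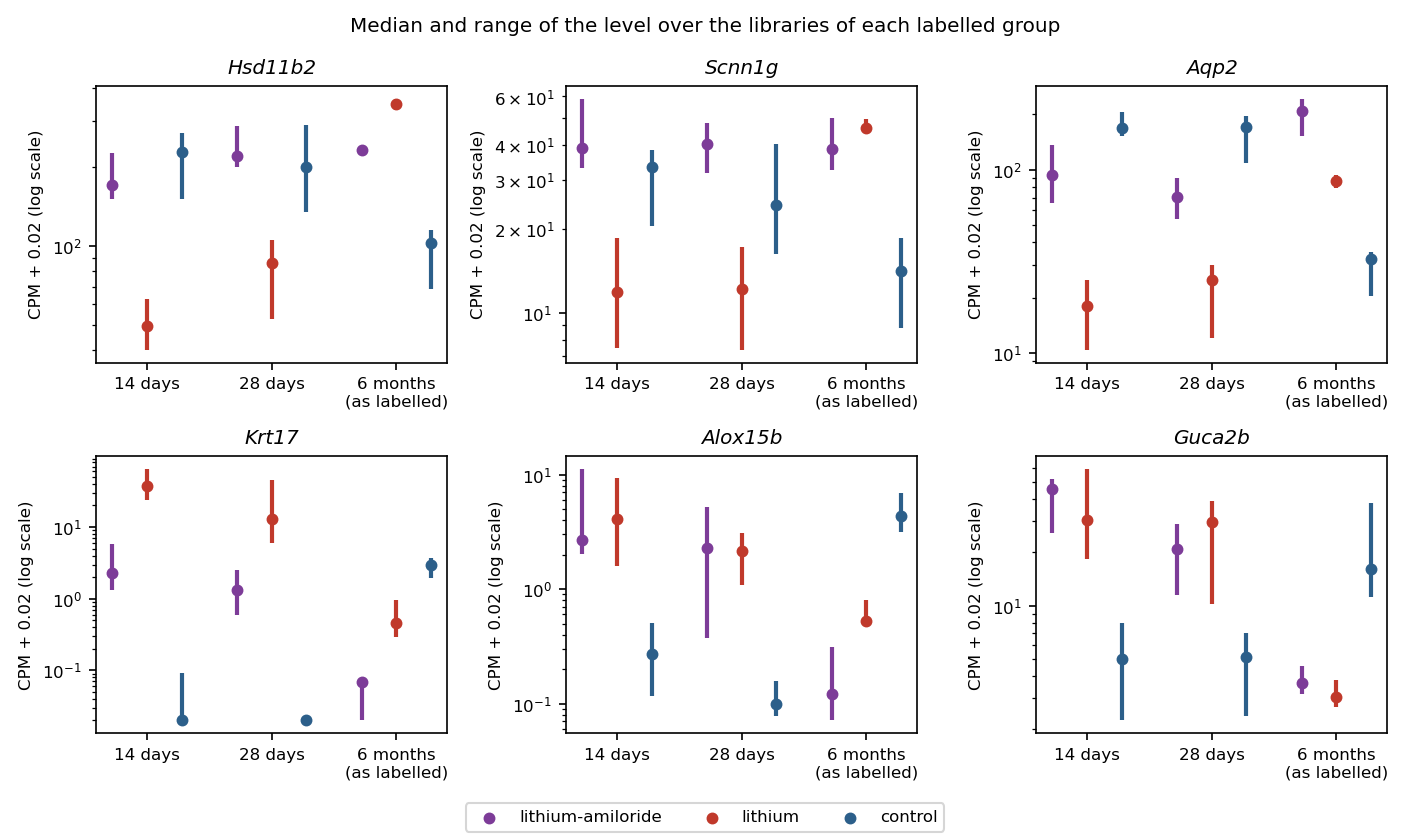
Level of 6 genes, as CPM plus a small constant on a log axis (y axis), scaled over the libraries of all 3 studies, in the lithium-amiloride, lithium and control groups of each study by their labels (x axis), where the point is the median and the bar the range over libraries. For Hsd11b2, Scnn1g and Aqp2 control is above lithium at 14 and 28 days and labelled control is below labelled lithium at 6 months, and for Krt17 and Alox15b the order is the other way.

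Among genes lower at 6 months, several were the opposite in lithium against control. Lamb3 had a median of 11.7 CPM in lithium (8.59 to 20.6) against 1.45 CPM in control (0.867 to 2.17) at 14 days, on the scale of all 3 studies. Its 6-month log2 fold change was lower by -5.27 ± 0.43 (SE) than the 14-day one (edgeR adjusted p 1.44e-11). Krt17, a keratin of activated epithelia, had 23.8 to 64.5 CPM in 6 lithium libraries at 14 days, while 5 of 6 control libraries had no read and the 6 together held 1 read. The ratio of lithium to control was 3244, with a 95% counting interval of 582 to 128200. At 28 days no control library had a read of Krt17, and lithium, at 5.96 to 44.7 CPM, was at least 482-fold higher in pooled reads (17.5 CPM) against a floor of 3 counts over the control group, with a lower 95% counting limit of 391.6 for the ratio. At 6 months Krt17 had 0.260, 0.411 and 0.869 CPM in labelled lithium, against 2.66, 1.81, 2.93 and 3.57 CPM in labelled control. Both groups held reads and labelled control was higher, while the 3 libraries labelled lithium-amiloride were at or below 0.049 CPM.

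The few genes whose 6-month fold change differed from lithium-amiloride against lithium included LOC103690821, by 4.28 ± 0.64 and 4.88 ± 0.61 (SE, log2) at 14 and 28 days (edgeR adjusted p 0.000953 and 1.50e-05). Its earlier medians ran between 0.288 and 0.497 CPM in every group, so it was near absence at both earlier times. Guca2b differed from the 14-day contrast by -3.01 ± 0.55 (edgeR adjusted p 0.00649), with medians of 45.6 CPM in lithium-amiloride, 30.4 CPM in lithium and 4.98 CPM in control. Cdkn2b differed by 2.68 ± 0.43 (0.00137), with medians of 0.551 CPM in lithium-amiloride, 1.76 CPM in lithium and 0.109 CPM in control at 14 days. Krt7 and Arl4a differed by 0.79 and 0.88 on the log2 scale. These 5 genes at 14 days and LOC103690821 at 28 days were the ones past both thresholds by edgeR among the genes called at 6 months.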

How the data were processed

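Poly(A) RNA of rat kidney cortex was sequenced by the study with a stranded kit. The authors trimmed the reads, aligned them to Rnor_6.0 with HISAT2 2.1.0 and counted them per gene with featureCounts (2.0.0 in the submitters' processing notes), and the deposited matrices hold these raw counts for 32545 genes, without normalization. Column names gave each library its group and number, and no per-sample column was left unmapped. The deposited comparison tables hold the authors' DESeq2 log2 fold changes and p-values. These log2 values were matched to ones recomputed from the counts, only to find which libraries stand under which name, and the tables also gave the symbols of 9237 genes. They were not used otherwise.

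Genes were kept by filterByExpr (minimum count of 10), scaled by TMM and compared with the quasi-likelihood F test of edgeR 4.0.16 (R 4.3.3, limma 3.58.1), with Benjamini-Hochberg adjustment over all genes tested. Calls used the thresholds given above, 0.05 for the adjusted p and 0.5 for the size of the log2 fold change. Differences between contrasts were tested in 1 fit of 9 groups, without 3 libraries that the study left out. CPM are counts per 1000000 reads on 1 TMM scale over the 12 libraries of the 6-month study, and on 1 scale over all studies where the 14- and 28-day levels are given. Counting intervals and floors cover counting error only.

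The genes named are the 12 highest and 12 lowest called fold changes with groups apart and a mean of at least 1 CPM, every called member of the lists given here, members that define a segment, cell type or pathway or that the study names, and for each difference the 6 largest among genes called at 6 months. Wnt9a, and Hoxd10, Kcnq1 and Ptges in the closing observations, were chosen after their values were seen. The comparison, the gene lists and the tests were chosen with earlier results of these data known. The alternatives were DESeq2 1.42.0, its size factors, library totals, no filter and a stricter filter (50 counts in 3 libraries), only the 7 libraries, all 12 libraries, no fold threshold, a replicate block and each library left out. The scripts were tested on simulated counts. Reads, urine, blood and tissue sections were not analysed here.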

Additional observations from a re-analysis of the deposited data

Results flagged for a closer look

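Among the 4 labelled control libraries, 3 of the 91 named genes checked had 1 library far from the other 3 by Dixon's test. Chance flags about 1 in 20 groups, which is more than these 3. Dcn stood at 356.8 CPM in labelled control 2, against 232 to 251 CPM in the others. Rhcg stood at 175.49 CPM in labelled control 1, against 127 to 130.3 CPM. Serpina3n, an acute phase protein, stood at 1.2418 CPM in labelled control 4, against 0.489 to 0.604 CPM, and its 6-month call was lost in 6 of the 7 omissions of a library.

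The 6-month log2 fold change differed from that of lithium against control at 14 days by -13.36 for Krt17, -7.646 for Havcr1, -7.0546 for Alox15b, -6.0354 for Serpina3n, -5.423 for Guca2b and -5.2745 for Lamb3. Against 28 days it differed by -13.582 for Krt17, -7.4903 for Alox15b, -7.372 for Muc4, -6.9634 for Havcr1, -5.5678 for Wnt7a and -5.2035 for Guca2b. The fitted Krt17 values rest on control groups with 1 read and none, and are no measure of size. The 28-day values of Muc4 and Alox15b also rest on few control reads. The 28-day control group held 6 reads of Muc4, with 3 of 6 libraries at 0, and 7 reads of Alox15b, so the size of these differences is uncertain. Against lithium-amiloride over lithium at 14 days the difference was 4.2767 for LOC103690821, -3.0141 for Guca2b, 2.6755 for Cdkn2b, 0.88296 for Arl4a and 0.79475 for Krt7, and at 28 days it was 4.8813 for LOC103690821. All of these are edgeR differences past both thresholds, between studies that differ in time, start of amiloride and depth, which cannot be told apart. By the tables' naming the 6-month contrast is lithium-amiloride against lithium, so that the differences from lithium against control would then set unlike contrasts against each other.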

How the results depend on the processing

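The 289 calls of the 6-month comparison became 499 with DESeq2, 111 with all 12 libraries and 104 to 615 with 1 library left out. With a replicate block they became 84. The deviations of same-numbered libraries from their group means correlated at r = -0.115, -0.020 and -0.100, and those of other pairs at -0.146 to 0.194. So few pairs cannot tell whether the numbers pair the libraries. Other scalings, filters and the fit of the 7 libraries alone gave 200 to 300 calls, and leaving out the fold threshold gave 416. Of the 289 genes, 2 lost their call with DESeq2, 97 with library totals as scaling, 180 with all 12 libraries, 209 with the block and 13 to 194 with 1 library left out. The differences from lithium against control numbered 1284 to 1799 at 14 days and 487 to 766 at 28 days with 1 library left out. Those from lithium-amiloride against lithium at 14 days were 9 to 15, and 29 with all 47 libraries, and those at 28 days were 2 to 6. With the block, the 4 differences gave 1320, 561, 8 and 3 genes.

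Of 91 named genes, Aqp3, never called, was the one whose direction turned. Its log2 fold change ran from -0.22 to 0.13 with 1 library left out, above 0 without labelled lithium 3 (0.13) or labelled control 1 (0.07). The causes of these shifts were not tested. Groups of 3 and 4 libraries leave genes under 1 CPM, such as Serpina3n, with few reads.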

Other observations

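Some called genes outside the lists showed tight groups. Kcnq1, a potassium channel of epithelia and heart, had 105, 102 and 96.3 CPM in labelled lithium, against 56.3, 50.4, 51.6 and 57.7 CPM in labelled control, a log2 fold change of 0.91 ± 0.06 (SE, edgeR adjusted p 0.000212). Ptges, the synthase of prostaglandin E, had 23.5, 21.4 and 23.1 CPM in labelled lithium, against 11.1, 12.4, 11.9 and 10.2 CPM in labelled control, a log2 fold change of 0.99 ± 0.08 (SE, edgeR adjusted p 0.000362). Both groups of each gene were narrow and far apart. Hoxd10, a patterning gene of the posterior body, had 30.6, 34.9 and 29.1 CPM in labelled lithium, against 17.8, 18.4, 21.1 and 20.7 CPM in labelled control, a log2 fold change of 0.70 ± 0.10 (SE, edgeR adjusted p 0.00529). These 3 genes were chosen after their values were seen.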
